A study of Mus musculus with 7 samples.

Results

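Insm1 (insulinoma-associated 1) encodes a zinc finger transcription factor, and it was the 1 gene examined here among the 752 genes of the deposited table. It was found by its symbol in that table (Ensembl identifier ENSMUSG00000068154). The gene was chosen because its read counts differed strongly between Batf KO and wild-type B cells, so its values in that comparison are given as a description and carry no test. The 752 genes are those that the authors' own comparison of the genotypes passed at a false discovery rate (FDR) under 0.05. They made up 3.81% of the 19734 genes that the authors tested, with 1.95% higher and 1.86% lower in Batf KO.

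The libraries came from splenic B cells of 4 wild-type mice and 3 Batf KO mice, all on the C57BL/6J strain background. The cells were purified on magnetic columns. Cells of both groups were then activated in culture for 6 h with 20 µg/mL of LPS, the bacterial lipopolysaccharide that TLR4 recognises, together with 20 ng/mL of the cytokine IL-4. BATF belongs to the AP-1 group of basic leucine zipper factors and binds DNA as a partner of JUN proteins, often beside IRF4 or IRF8. For the Batf KO allele, the age and sex of the mice and the purity of the cells, the sources used here give nothing. Each library was taken as 1 mouse, since the labels give each its own number. The design text speaks of 2 replicates for all samples without saying what these were. Levels are in CPM, the reads of a gene scaled to a common library total.

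INSM1 is a transcriptional repressor with zinc fingers of the C2H2 type. A short SNAG motif at its N terminus binds the histone demethylase LSD1 (Kdm1a), which works with CoREST proteins and histone deacetylases. INSM1 is known for its part in the formation of pancreatic endocrine cells, neuroendocrine cells and neurons, where it represses genes such as Neurod1 and the insulin genes. It also binds cyclin D1, and pathologists use it as a marker of neuroendocrine tumours.

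By the GENCODE annotation of the mouse assembly GRCm38 (mm10), Insm1 lies on the plus strand of chromosome 2, from 146221921 to 146225020. It has a single exon of 3100 bases and no intron. The 5′ UTR covers 146221921 to 146222265, the coding sequence with its stop codon covers 146222266 to 146223831, and the 3′ UTR covers 146223832 to 146225020. The coding sequence encodes 521 residues. Because the gene has no intron, its reads cannot show whether they came from mature RNA, nascent RNA or genomic DNA.

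The effective library sizes, recovered as count divided by CPM, were 24891094 to 44728937 reads in wild type and 23675459 to 30844920 reads in Batf KO. Wild-type libraries were alike in pairs. Replicates 1 and 2 differed by a chi-square statistic of their counts of 18.5 per degree of freedom, replicates 3 and 4 by 20.8, and the other wild-type pairs by 33.3 to 49.8. Among Batf KO pairs it was 16.6 to 23.8. Batf KO replicate 1 was the only library with reads of the Y chromosome gene Usp9y (72 reads, and 0 in the other 6 libraries). Usp9y was thus listed on the reads of that library alone. The libraries may differ in the sex of the mice, and the part of sex in the Insm1 difference was not tested. Batf itself, the disrupted gene, was at 315, 307, 333 and 322 CPM in wild-type replicates 1 to 4 and at 63.4, 70.3 and 65.8 CPM in Batf KO replicates 1 to 3. The remaining reads in Batf KO cannot be assigned to exons from counts per gene.

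Insm1 was abundant in wild-type cells and low in every Batf KO library. Wild-type replicates 1 to 4 held 4245, 3367, 5051 and 3334 Insm1 reads. Scaled to library size, these were 106.5, 111.8, 112.9 and 133.9 CPM. Batf KO replicates 1 to 3 held 545, 424 and 384 Insm1 reads, or 17.7, 15.7 and 16.2 CPM. The 3 Batf KO libraries lay close together, far below the lowest wild-type library, and the groups did not overlap. The groups did not overlap for 94.7% of the listed genes either, since the table was selected on this contrast.

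The mean Insm1 level in wild type was 116 ± 12.1 CPM (SD, n = 4). In Batf KO it was 16.5 ± 1.01 CPM (SD, n = 3), which left 14.2% of the wild-type mean and made a 7.03-fold difference. The log2 fold change fitted by edgeR was -2.81 (SE 0.10). It was -2.86 without Batf KO replicate 1 and -2.74 without wild-type replicate 4. The authors' deposited table gives the same log2 fold change for Insm1, -2.81. The smallest fold between any wild-type and any Batf KO library was 6.03, and the largest was 8.51. Summed over libraries, 15997 wild-type and 1353 Batf KO reads gave a ratio of 6.90 per library size, with an exact 95% counting interval of 6.53 to 7.30. That interval covers counting error only. In RNA from whole cultures, fewer cells that express Insm1 and less Insm1 RNA per cell cannot be told apart.

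**Figure D1:**
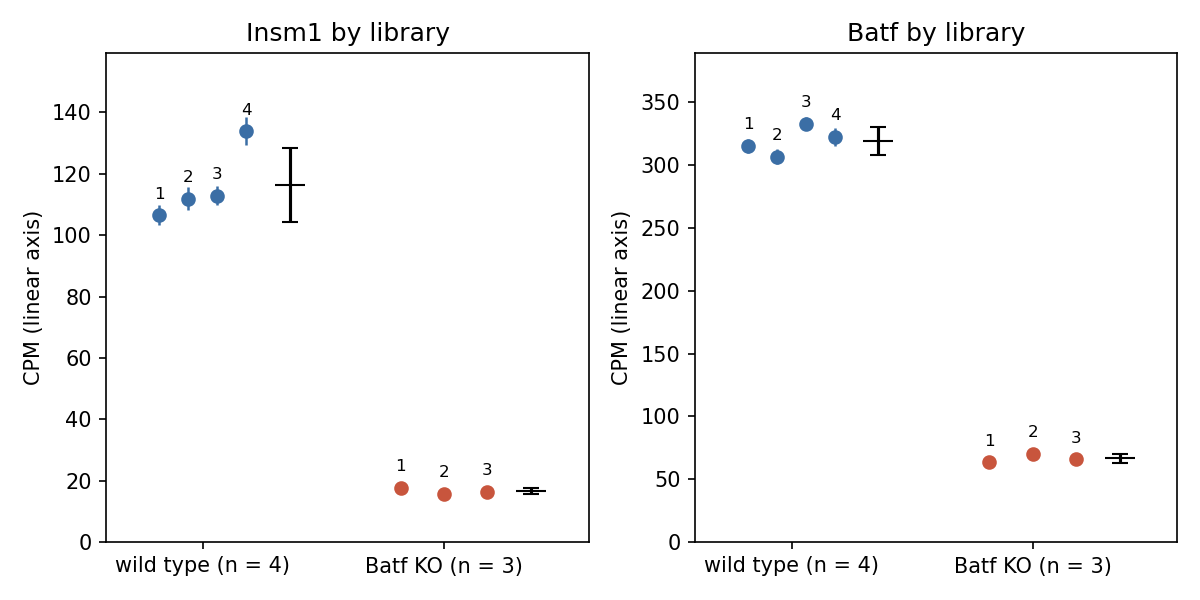
CPM of Insm1 (left) and Batf (right) in each library on linear axes from 0, with wild type in blue and Batf KO in red and the replicate number above each point. Vertical lines through points are exact 95% counting intervals, and the black marks are the group mean ± SD. The 3 Batf KO libraries sit between 15.7 and 17.7 CPM for Insm1, below the 4 wild-type libraries at 106.5 to 133.9 CPM.

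In ascending order the Insm1 levels ran from Batf KO replicate 2 through replicate 3 to replicate 1, and then from wild-type replicate 1 through replicates 2 and 3 to replicate 4. The 95% counting intervals of the 3 Batf KO levels overlapped (14.3 to 17.3, 14.6 to 17.9 and 16.2 to 19.2 CPM), so their order is not firm at this depth. In wild type, the interval of replicate 2 (108.1 to 115.7 CPM) overlapped those of replicates 1 and 3. The intervals of replicate 1 (103.3 to 109.7 CPM) and replicate 3 (109.8 to 116.1 CPM) did not overlap. Wild-type replicate 4 stood above replicates 1, 2 and 3, with an interval of 129 to 139 CPM. Without that library the wild-type mean was 110.4 ± 3.45 CPM (SD, n = 3). Replicate 3, the library most like replicate 4 over all listed genes, was at 112.9 CPM and lay with replicates 1 and 2.

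In wild type, the spread of Insm1 between mice was ordinary for a listed gene of its level. Its coefficient of variation was 10.4% among the wild-type libraries, where counting alone would give 1.61%, and 3.13% without replicate 4. It was 6.09% among the Batf KO libraries, where counting alone would give 4.76%. A total of 209 listed genes had a mean level over all 7 libraries between 36.8 and 147 CPM, around that of Insm1. Their median coefficient of variation was 7.86% in wild type (quartiles 5.23% and 12.8%) and 7.06% in Batf KO (quartiles 4.55% and 10.9%). Insm1 lay within the quartiles in both groups. Its Batf KO mean of 16.5 CPM was below the range that defined these genes, so in Batf KO they are not matched to its level.

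Per kilobase of exon, Insm1 was at 37.5 ± 3.90 CPM per kb (SD, n = 4) in wild type and 5.34 ± 0.33 CPM per kb (SD, n = 3) in Batf KO. Of the 742 listed genes with an annotated length, Insm1 had the rank 103 in wild type by this measure, at or above 86.3% of them. In Batf KO it had the rank 378, close to the middle, at or above 49.2% of them. The median of these genes was 5.86 CPM per kb in wild type and 5.61 CPM per kb in Batf KO. Insm1 was thus among the more abundant listed transcripts in wild-type cells and of middling abundance in Batf KO cells.

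Few lowered genes had a larger fold difference than Insm1, and those were rare transcripts. Among the 328 lowered genes with a mean of at least 1 CPM, Insm1 had the rank 6 by fitted log2 fold change. It followed the immunoglobulin genes Igha, Ighg2c and Ighg2b, then Tbx21, the gene of T-bet, and the adhesion receptor gene Adgrl2. Adgrl2 stood directly above it, at 1.87 CPM in wild type and 0.23 CPM in Batf KO. Over all 368 listed lowered genes, 19 had a larger fall than Insm1 in the authors' deposited table, and 14 of them had a mean below 1 CPM. The highest wild-type mean among those 19 was 4.83 CPM. Among the 267 lowered genes with a mean of at least 5 CPM, Insm1 had the rank 1.

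By the likelihood ratio in the authors' deposited table, which weighs both the size of a difference and its precision, Insm1 had the rank 2 of 752, after Batf (516 against 529). This ratio comes from the contrast for which Insm1 was chosen, so the rank is a description and not a test. By CPM lost, Insm1 had the rank 18 of 368. Its difference of 99.8 CPM was 1.07% of the 9337 CPM summed over the listed lowered genes. The Insm1 difference was therefore large in fold and modest as a part of the CPM lost over these listed genes.

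**Figure D2:**
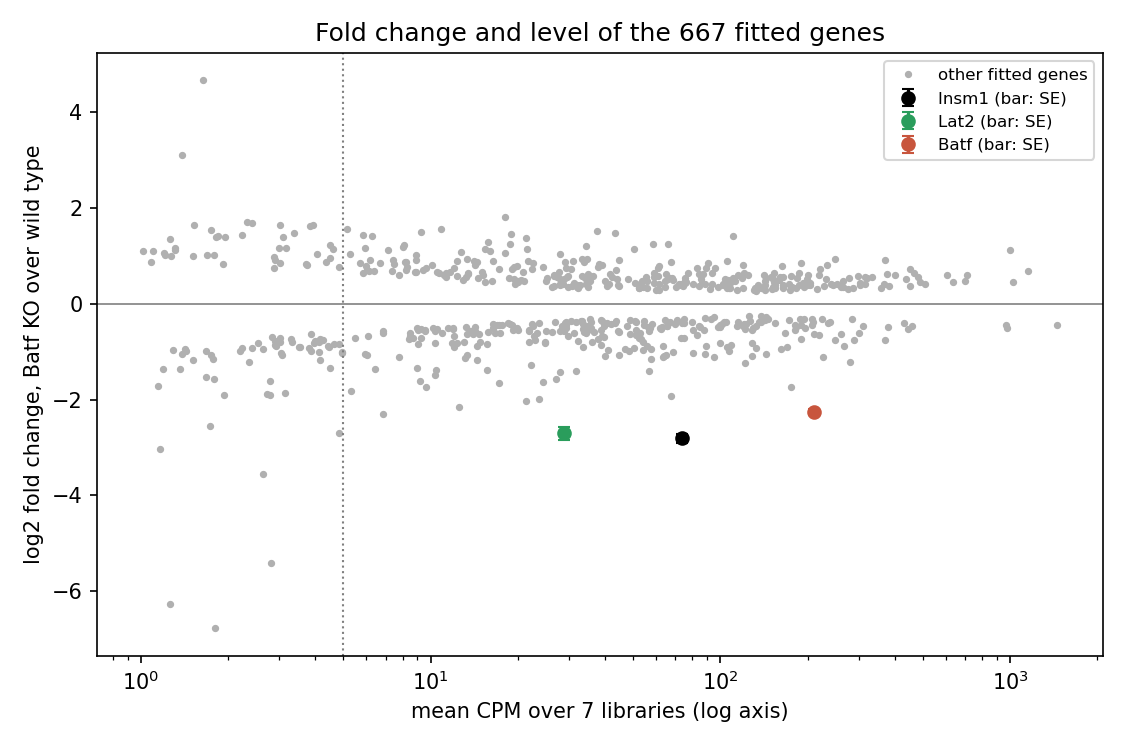
Log2 fold change (Batf KO over wild type, edgeR fit) against mean CPM on a log axis for the 667 listed genes with a mean of at least 1 CPM. Insm1 (black), Lat2 (green) and Batf (red) carry their SE as bars, and the dotted line marks 5 CPM. To the right of that line no gene lies below Insm1 at -2.81, and the genes that lie lower are all at the left.

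Reads of Insm1 were reduced further than the reads counted on Batf, the disrupted gene. Batf KO libraries kept 14.2% of the wild-type level of Insm1 and 20.8% of that of Batf. Within libraries, the ratio of Insm1 to Batf CPM was 0.338, 0.365, 0.339 and 0.415 in wild-type replicates 1 to 4. It was 0.279, 0.224 and 0.246 in Batf KO replicates 1 to 3, each below each wild-type ratio. Per kilobase of exon, the ratio was 0.153 to 0.188 in wild type and 0.102 to 0.126 in Batf KO. Batf reads in Batf KO cannot be assigned to exons, so the 20.8% and these ratios need not measure intact Batf RNA. Both genes belong to the contrast that selected them, so the difference between them was not tested.

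To find the genes with a pattern like that of Insm1, log2(CPM + 0.5) was taken relative to the wild-type mean. The distance of each gene from Insm1 was the root mean square difference over the 7 libraries. Over 666 genes with a mean of at least 1 CPM the median distance was 2.01. The 8 nearest genes were Lat2 (0.14), Igha (0.25), Batf (0.36), Ighg3 (0.40), Ighg2b (0.45), Ighg2c (0.48), Pik3cg (0.52) and Slamf6 (0.55). The gene after them, Plbd1, was at 0.57, so the boundary of this group is not sharp. These distances describe libraries that fall into 2 groups by genotype, and genes chosen for the same contrast share most of the pattern. Batf is the disrupted gene, so its distance also rests on reads that cannot be assigned to exons.

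Lat2, the gene of a membrane-bound adaptor that takes part in antigen receptor signalling, was the nearest. It lies on chromosome 5, from 134600022 to 134615025. Lat2 was at 39.8, 39.6, 49.6 and 51.6 CPM in wild-type replicates 1 to 4 and at 7.16, 6.68 and 6.88 CPM in Batf KO replicates 1 to 3. Its Batf KO level was 15.3% of wild type, beside 14.2% for Insm1. The ratio of Insm1 to Lat2 CPM was 2.27 to 2.82 across the wild-type libraries and 2.36 to 2.47 across the Batf KO libraries, so the ranges overlapped. Within wild type the genes differed in order. Lat2 was higher in replicates 3 and 4 than in 1 and 2, and Insm1 stood apart in replicate 4 alone.

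Pik3cg, a catalytic phosphoinositide 3-kinase gene on chromosome 12, and Slamf6, a SLAM family receptor gene on chromosome 1, were less deeply reduced than Insm1. Pik3cg was at 8.29 to 12.5 CPM in wild type and 1.91 to 2.41 CPM in Batf KO, which was 20.4% of wild type. Slamf6 was at 27.6 to 34.4 CPM in wild type and 6.83 to 8.83 CPM in Batf KO, or 24.6%. The immunoglobulin constant genes near Insm1 in this measure had far fewer reads. Ighg3 had 1089 wild-type and 96 Batf KO reads, Ighg2b 689 and 9, Igha 418 and 2, and Ighg2c 312 and 2. For Igha the ratio of reads per library size was 122, with a 95% counting interval of 33.6 to 1011, against 6.90 for Insm1. The 0.5 CPM added before the logarithm brings Igha, Ighg2b and Ighg2c near Insm1. Ighg2b and Ighg2c are close copies of one another and may share reads.

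With a minimum of 5 CPM, 4 of the 8 genes were among the nearest, namely Lat2, Batf, Pik3cg and Slamf6. The others were then Plbd1, Rab43, Lrrk2 and Nfil3, at 22.4% to 30.2% of their wild-type levels. Each of these 8 kept a larger part of its wild-type level than Insm1, which had the rank 1 among lowered genes at this minimum.

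**Figure D3:**
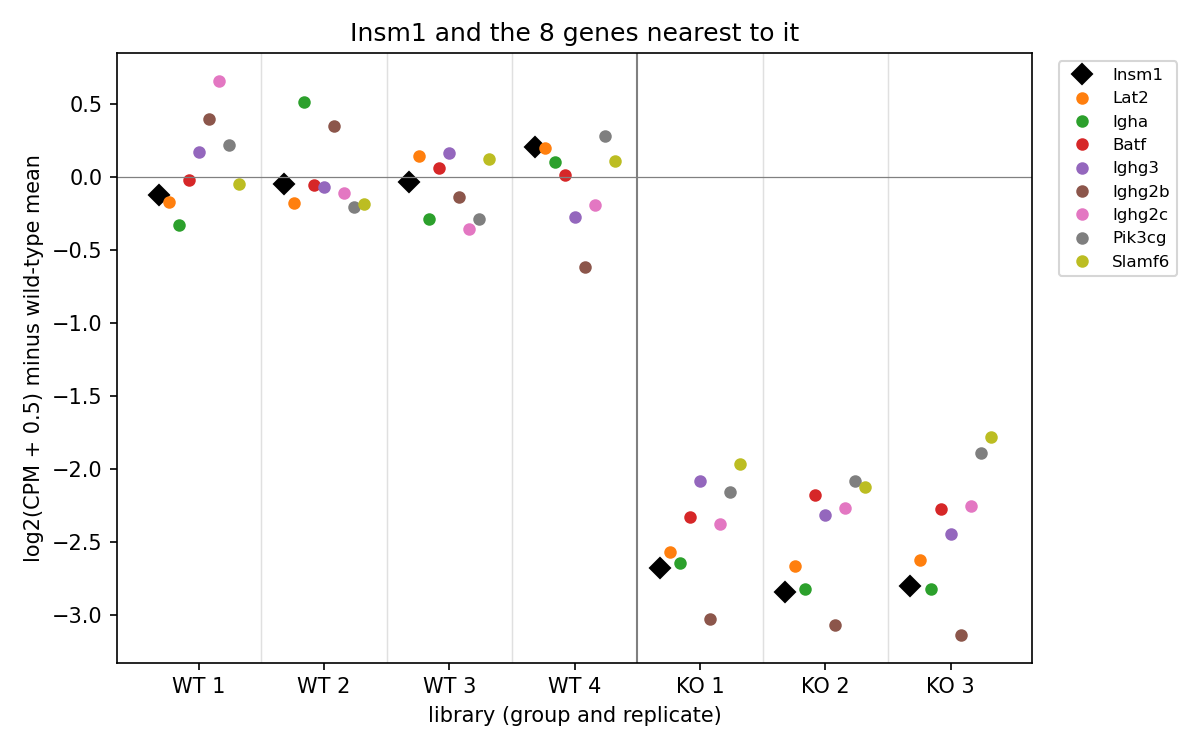
Log2(CPM + 0.5) minus the wild-type mean in each of the 7 libraries for Insm1 (black diamonds) and the 8 genes nearest to it (coloured points, offset sideways within a library so that they can be told apart). In the Batf KO libraries Insm1 lies between -2.84 and -2.68, with Igha and Lat2 nearest to it and Ighg2b below it in each of the 3.

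On chromosome 2, the difference was much larger at Insm1 than at Ralgapa2, the 1 gene near it that has values here. Of 26 other genes annotated within 1 Mb, 10 of them protein-coding, 1 was listed, beside 3.81% of all tested genes. Ralgapa2 (146239879 to 146512344, minus strand) encodes a subunit of a GTPase-activating complex for Ral proteins, and its span starts 14.9 kb beyond Insm1. Ralgapa2 was at 49.6, 45.9, 47.9 and 48.9 CPM in wild-type replicates 1 to 4 and at 34.4, 39.1 and 39.5 CPM in Batf KO replicates 1 to 3. Its Batf KO level was 78.3% of wild type (log2 fold change -0.35, SE 0.08). It passed edgeR's quasi-likelihood test over the 667 fitted genes (adjusted p = 0.00272), as did 100% of those selected genes, and not when adjusted over 19734 genes (adjusted p = 0.0804), where 286 genes passed, 1.45% of those tested and 42.9% of the 667 fitted.

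The ratio of Insm1 to Ralgapa2 CPM was 2.15 to 2.74 in the wild-type libraries and 0.402 to 0.514 in the Batf KO libraries. The gene on the other side of Insm1, Cfap61, ends 6.88 kb before it and was not listed. A gene that was not listed has no level here, and its absence says only that it did not pass the authors' threshold.

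Among relatives of INSM1, Insm1 was the 1 listed gene. The SNAG motif family was represented by 11 genes, among them Insm2, Gfi1, Gfi1b and the Snai, Scrt and Ovol genes, and the other 10 were not listed. None of 13 genes of the LSD1, CoREST and histone deacetylase corepressor, through which INSM1 represses its targets, was listed, Kdm1a, Rcor1, Hdac1 and Hdac2 included. These counts stand beside the 3.81% of all tested genes that were listed. No p-value of these unlisted genes was at hand, so no other threshold could be applied to them.

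From a list of 35 genes of the neuroendocrine and islet programme with which INSM1 is usually associated, Gcg had few reads. Gcg, the glucagon gene, had 16, 14, 24 and 9 reads in wild-type replicates 1 to 4 and 4, 3 and 1 reads in Batf KO. It lay below the minimum of 1 CPM, where Insm1 was at 116 CPM in wild type. Without that minimum, an alternative chosen after seeing the data, Gcg passed edgeR's test over 19734 genes (adjusted p = 0.0433), as did 310 genes, 1.57% of those tested and 41.2% of those listed. The Gcg value rests on 63 reads in wild type and 8 in Batf KO. None of the 6 defining endocrine markers Chga, Chgb, Syp, Ins1, Ins2 and Scg2 was listed, where 3.81% of all tested genes were.

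Insm1, chosen for its strong difference, had a larger fold difference than each listed member of a list of 55 C2H2 zinc finger regulators of lymphocytes. Of these, 11 were listed, 5 lower and 6 higher in Batf KO, where 3.81% of all tested genes were listed. The list was chosen with earlier results of these data known. Egr2, an early response factor gene, came closest. It was at 35.5, 24.1, 37.3 and 41.0 CPM in wild-type replicates 1 to 4 and at 12.7, 11.7 and 9.08 CPM in Batf KO, a 3.09-fold difference against 7.03-fold for Insm1. The other lower members were Zbtb32 (2.22-fold), Zeb2 (1.67-fold), Prdm1, which encodes the plasma cell factor BLIMP-1 (1.66-fold), and Klf6 (1.34-fold). Bcl6, a repressor gene of germinal centre B cells, was higher (45.9 against 67.8 CPM, 1.48-fold). Ikzf1, Zbtb46, Hivep2, Hivep3 and Bcl6b were higher too. Adjusted over 19734 genes in edgeR's test, where 42.9% of the fitted genes passed, 3 of the 10 fitted members did: Egr2 (adjusted p = 0.00490), Zeb2 (adjusted p = 0.00477) and Bcl6 (adjusted p = 0.0208). The median log2 fold change of the 11 in the authors' deposited table was 0.38, against 0.31 over all 752 genes.

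Listed AP-1 and IRF factor genes, Batf included, differed less in fold than Insm1, which was chosen for its strong difference. Several of them differed in the other direction. Of 20 genes in this list, 8 were listed, 5 higher and 3 lower, where 3.81% of all tested genes were listed. Irf4 was at 608, 598, 716 and 727 CPM in wild-type replicates 1 to 4 and at 1389, 1566 and 1371 CPM in Batf KO, so it was higher where Insm1 was lower. Jun, Irf8, Atf3 and Jund were also higher, by 1.81-fold, 1.52-fold, 1.64-fold and 1.41-fold. Beside Batf, the lower members were Jdp2 (2.04-fold) and Bach2 (1.81-fold). Adjusted over 19734 genes in edgeR's test, 6 of 8 passed beside 42.9% of the fitted genes. The exceptions were Atf3 (adjusted p = 0.130) and Jund (adjusted p = 0.199). Batf, the disrupted gene, is among the 8 and among the 6. The list was chosen with earlier results of these data known, so its counts are not independent of them. The median log2 fold change of the 8 in the authors' deposited table was 0.55.

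Cyclin D1, the cell cycle protein known to bind INSM1, is encoded by Ccnd1, which was not listed. Of 21 D cyclin and G1 regulator genes, 4 were listed, where 3.81% of all tested genes were. This list, too, was chosen with earlier results of these data known. Ccnd3 was at 13.6, 17.2, 20.3 and 18.8 CPM in wild-type replicates 1 to 4 and at 31.9, 28.2 and 26.5 CPM in Batf KO. E2f1 (1.40-fold) and E2f2 (1.80-fold) were higher too, and Rbl2, which encodes a pocket protein of the retinoblastoma family, was lower (1.75-fold). Adjusted over 19734 genes in edgeR's test, 0 of 4 passed beside 42.9% of the fitted genes, with adjusted p-values from 0.0512 (Ccnd3) to 0.267 (Rbl2). Without the minimum of 1 CPM, the alternative chosen after seeing the data, Ccnd3 passed (adjusted p = 0.048). All 4 had an unadjusted p under 0.05 in edgeR's test, where 100% of the fitted genes passed even after adjustment over them. DESeq2 called 4 of 4 over the 667 fitted genes, as it did 100% of them. Both counts follow from the selection of the table. Their median log2 fold change in the authors' deposited table was 0.60.

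**Figure D4:**
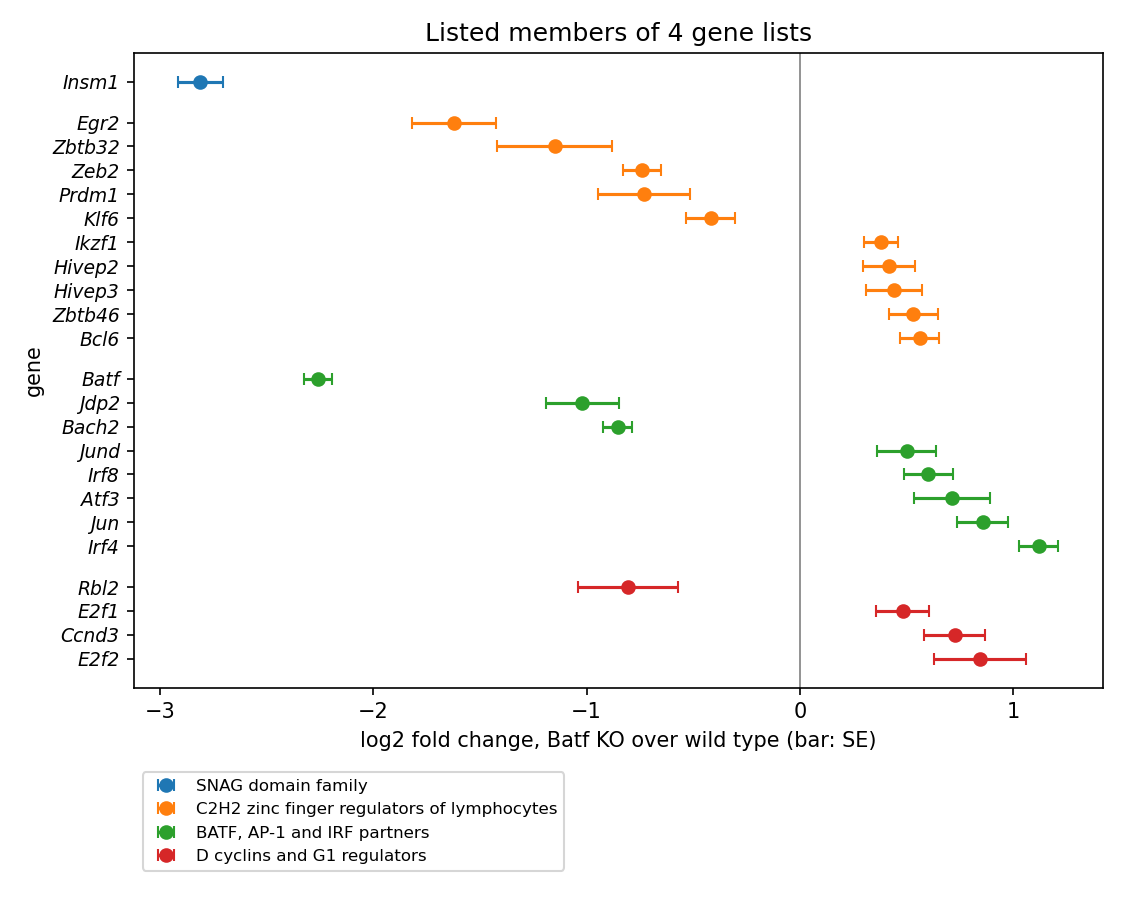
Log2 fold change (Batf KO over wild type, edgeR fit, bars are SE) of the listed members with a mean of at least 1 CPM of 4 gene lists, coloured by list. Insm1 stands at -2.81, followed among these genes by Batf at -2.26 and Egr2 at -1.62, and Irf4 is farthest to the right at 1.12.

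The listed B cell markers were well represented in both groups. Most markers of B cells, like most markers of other cells, were not listed and have no level here. Of 12 B cell markers, 3 were listed, where 3.81% of all tested genes were. Ms4a1, which encodes CD20, was at 533 to 613 CPM in wild type and 832 to 905 CPM in Batf KO. The kinase gene Blk was at 66.1 to 76.1 CPM in wild type and 96.8 to 111 CPM in Batf KO. Ighm, the IgM constant gene, was at 1487 to 1893 CPM in wild type and 1127 to 1280 CPM in Batf KO. Ms4a1 and Blk were thus higher, and Ighm lower, in the libraries where Insm1 was low. Adjusted over 19734 genes in edgeR's test, where 42.9% of the fitted genes passed, Ms4a1 (adjusted p = 0.00392) and Blk (adjusted p = 0.0124) passed. Ighm did not pass that test (adjusted p = 0.0634). The part of these 3 genes in the Insm1 difference was not tested.

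Of 13 T and NK cell markers, 1 was listed, Cd8b1, at 1.48 to 2.59 CPM in wild type and 5.24 to 7.42 CPM in Batf KO. Of 12 myeloid markers Zbtb46 was listed, at 47.4 to 65.7 CPM in wild type and 73.6 to 89.6 CPM in Batf KO. Of 8 erythroid and platelet markers Pf4 was listed, with 60 reads in wild type and 77 in Batf KO. Scaled to library size, these were 0.28 to 0.63 CPM in wild type and 0.76 to 1.04 CPM in Batf KO. Of 4 plasma cell markers Prdm1 was listed, at 7.30 to 13.0 CPM in wild type and 5.20 to 6.75 CPM in Batf KO. These counts of markers stand beside the 3.81% of all tested genes that were listed. Adjusted over 19734 genes in edgeR's test, where 42.9% of the fitted genes passed, Cd8b1 passed (adjusted p = 0.013). Zbtb46 (adjusted p = 0.0744) and Prdm1 (adjusted p = 0.276) did not pass that test. Pf4, fitted only without the minimum of 1 CPM, did not pass it either (adjusted p = 0.175). Insm1 was lower in Batf KO where Cd8b1, Zbtb46 and Pf4 were higher and Prdm1 was lower. The part of other cells in the Insm1 difference was not tested.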

How the data were processed

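RNA-seq of splenic B cells from 4 wild-type and 3 Batf KO mice was used. The authors used mm10, edgeR 3.03, HTSeq 0.5.3p7 and TopHat2 2.0.6, per the submitters' processing notes, which give no roles. The sources used here do not give the annotation, the strand setting or the handling of multi-mapped reads. Per the file headers, the deposited table holds read counts per gene and the CPM the authors computed. The authors' comparison is there too: per gene, its p-value and FDR, its likelihood ratio (a score), and on log2 scales its mean CPM and fold change. It lists 752 genes, each with an FDR under 0.05. The ratio of FDR to p-value gives 19734 tested genes.

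Counts were fitted with edgeR 4.0.16 (quasi-likelihood, two-sided) in R 4.3.3 with the deposited effective library sizes, over the 667 genes with a mean of at least 1 CPM. The edgeR values were adjusted by Benjamini-Hochberg over these, and also over 19734 genes with each unlisted gene at 1. All 667 genes (100%) passed the first, 286 (1.45%) the second. The SE is the log2 fold change divided by the square root of F. This step was tested on simulated data in which most genes did not differ, whereas every gene here was selected for its difference. P-values set the genotype difference against the spread between these libraries.

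Insm1, the gene lists and the marker lists were chosen with earlier results of these data known. Named genes were Insm1, Batf, the 8 nearest genes, those ranked directly above and below Insm1 by fold, each listed member of the 12 lists and each listed gene within 1 Mb. Positions were matched by Ensembl identifier to GENCODE M21 (742 of 752). Counting intervals were computed with scipy 1.17.1. Alternatives were other scalings, filters, pseudocounts and tools, and leaving out each library. The planned reading of promoter and protein sequence was not carried out. The values of 1 gene of these lists are not reported here.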

Additional observations from a re-analysis of the deposited data

Results flagged for a closer look

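Within the 4 wild-type libraries, Dixon's criterion at the 95% level asks whether the highest or lowest value stands too far from its neighbour for the range of the group. It was applied to the CPM of the 40 named genes, and chance alone would mark about 2 of them. E2f2, a cell cycle transcription factor gene, was the 1 marked: wild-type replicate 2 was at 22.3 CPM and the remaining wild-type libraries at 14.6 to 15.2 CPM. Insm1 was not marked, its highest library (replicate 4) standing apart by 0.765 of the range. The 3 Batf KO libraries are too few for the criterion.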

How the results depend on the processing

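The log2 fold change of Insm1 was -2.87 to -2.74 under the 5 other scalings, tools and pseudocounts and -2.86 to -2.74 with any 1 library left out, against -2.81. Its rank among lowered genes moved from 6 to 20 without the filter, to 1 with a minimum of 5 CPM and to 2 by the difference of mean log2(CPM + 0.5), since the genes above it have few reads. It was 5 to 7 with a library left out. Of the 8 genes nearest to Insm1, 4 remained with a minimum of 5 CPM, 4 when nearness was taken as the difference in fitted log2 fold change (chosen after seeing the data), and 7 to 8 with a library left out. Lat2 was the nearest gene in each of these settings except the distance of group means, where Igha was. Adjustment over 19734 genes cut the 339 higher and 328 lower genes to 134 and 152, or to 139 and 171 without the filter (chosen after seeing the data). Both are stricter by construction. With a library left out they were 322 to 340 and 327 to 332. DESeq2, limma, no filter and a minimum of 5 CPM stayed within 1.5 times the main counts. None of the 39 other named genes reversed under the settings that gave it a value, and each kept its call without any 1 library wherever it was fitted. Of those with a mean of at least 1 CPM, 15 did not pass over 19734 genes. Because the table was selected on these libraries, this stability is not independent evidence. No paired analysis was possible because the labels give each mouse its own number and pair none of them. The numbers of the 3 Batf KO mice lie between those of wild-type replicates 1 and 2. Wild-type replicates 3 and 4 have higher numbers. The labels do not say what the numbers stand for, and their part in the Insm1 difference was not tested. Depth limits Gcg, Igha and Ighg2c more than Insm1.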

Other observations

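Insm1 is 1 of 15 listed protein-coding genes annotated with a single exon. Of these, 5 were lower and 10 were higher in Batf KO. On chromosome 2, which carries Insm1, 64 genes were listed, 25 of them lower and 39 higher. Neither count was tested, and both were looked at after the values of Insm1 were known.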
